A study of Mus musculus with 6 samples.

Results

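The glucocorticoid receptor gene Nr3c1, the cortisone reductase gene Hsd11b1 and 8 glucocorticoid-induced genes (Fkbp5, Tsc22d3, Dusp1, Sgk1, Klf9, Zbtb16, Errfi1 and Mt2) were followed in 6 mouse livers. They were chosen by symbol, with earlier results of these data known. All 10 were found among the 16426 genes listed in at least 1 library. Of the livers, 3 came from wild-type mice injected through the tail vein with AAV8 expressing an shRNA against S1pr2, a receptor for the lipid sphingosine-1-phosphate, and 3 from mice given AAV8 with a scramble shRNA. All mice had a mixed B6:sv129 background and were 7 to 12 weeks old. Males took the synthetic glucocorticoid dexamethasone in their water, near 0.84 mg/kg over 7 days, according to the series text. The single libraries carry no label for that drug, and no untreated group was analysed here, so the values compare the shRNA groups and do not measure induction by the drug. No label states that replicates are separate animals, so each p-value reflects only how far these samples spread, which may be technical.

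In textbook terms, the receptor waits in the cytosol in a chaperone complex, binds its steroid, enters the nucleus and binds DNA at glucocorticoid response elements. In the liver it drives gluconeogenic and amino acid-degrading enzymes and damps inflammation. Several of its targets feed back on signalling: Fkbp5 encodes a co-chaperone that lowers the receptor's affinity for hormone, Tsc22d3 a protein that restrains inflammatory transcription factors, Dusp1 a phosphatase that inactivates MAP kinases, and Errfi1 an inhibitor of the EGF receptor. Sgk1 encodes a kinase, Klf9 and Zbtb16 transcription factors, and Mt2 a metal-binding metallothionein.

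Promoter windows from RefSeq on GRCm38.p6, spanning 250 bases before to 50 bases after a start site, were found for 8 of the 10 genes, in 16 windows because some genes have several starts. For Nr3c1 and Zbtb16 none is shown. The first 2 windows below belong to Dusp1 and Errfi1, 2 of the 3 genes whose livers did not overlap between groups. They were shown because they hold a cyclic AMP response element, which the window of the other such gene, Fkbp5, lacks. The Sgk1 window is the 1 that holds a palindromic glucocorticoid response element core. The Mt2 window belongs to the gene with the widest spread among S1pr2 shRNA livers. Capitals mark the cyclic AMP response element TGACGTCA in Dusp1 and Errfi1. In Sgk1 they mark that core (GNACA and TGTNC with 3 free bases between) and its monomer AGAACA, on either strand, and these overlap each other. In Mt2 they mark the metal response element core TGCNCNC, on either strand.
Dusp1, chr17:26508423-26508722, minus strand: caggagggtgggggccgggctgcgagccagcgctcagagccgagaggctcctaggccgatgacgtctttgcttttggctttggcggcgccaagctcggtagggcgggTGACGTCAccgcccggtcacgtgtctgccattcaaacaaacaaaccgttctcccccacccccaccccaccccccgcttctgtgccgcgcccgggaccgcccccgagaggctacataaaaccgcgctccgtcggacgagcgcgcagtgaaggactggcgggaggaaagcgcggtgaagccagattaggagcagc
Errfi1, chr4:150854820-150855119, plus strand: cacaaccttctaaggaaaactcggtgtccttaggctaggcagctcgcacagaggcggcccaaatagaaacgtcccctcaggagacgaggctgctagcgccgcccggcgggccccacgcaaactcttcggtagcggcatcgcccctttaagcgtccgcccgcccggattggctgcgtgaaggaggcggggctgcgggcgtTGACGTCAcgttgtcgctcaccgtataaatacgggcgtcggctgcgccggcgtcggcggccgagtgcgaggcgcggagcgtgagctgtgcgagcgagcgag
Sgk1, chr10:21993640-21993939, plus strand: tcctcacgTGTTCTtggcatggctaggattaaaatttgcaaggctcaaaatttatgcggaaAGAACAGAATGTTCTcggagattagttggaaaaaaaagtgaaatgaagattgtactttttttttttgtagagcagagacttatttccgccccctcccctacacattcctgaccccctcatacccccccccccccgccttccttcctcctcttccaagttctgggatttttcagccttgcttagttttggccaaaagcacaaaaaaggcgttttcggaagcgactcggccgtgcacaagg
Mt2, chr8:94172368-94172667, plus strand: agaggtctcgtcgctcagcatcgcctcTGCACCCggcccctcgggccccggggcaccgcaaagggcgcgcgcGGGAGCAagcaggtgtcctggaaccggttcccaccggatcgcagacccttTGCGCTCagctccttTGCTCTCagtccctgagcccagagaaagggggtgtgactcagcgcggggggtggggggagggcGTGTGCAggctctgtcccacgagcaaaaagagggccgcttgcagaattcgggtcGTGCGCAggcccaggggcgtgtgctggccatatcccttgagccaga
The cyclic AMP response element was in 1.79% of 32851 promoter windows. Among the genes described here it was in the Dusp1 window and in 1 Errfi1 window, the one shown, while another Errfi1 window lacked it. The palindromic glucocorticoid core was in 0.475% of windows and began 188 bases upstream of an Sgk1 start. The monomer was in 19.0% of windows, and among these genes in 3 Sgk1 windows and 1 Tsc22d3 window. Mt2 had 6 metal response element cores, a number reached by 0.225% of windows, while 51.0% of windows held at least 1. The E-box CACGTG was in 7.15% of windows, and in those of Dusp1, Fkbp5 and 1 start of Sgk1. A match describes these letters only and is not evidence of binding.

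The libraries held 16558775 to 17410160 expected counts (RSEM's estimated fragments per gene), and the 10 genes took 0.122 to 0.143% of them in S1pr2 shRNA livers and 0.196 to 0.296% in scramble livers. S1pr2 itself fell to 3.04, 2.20 and 2.22 CPM (TMM-scaled counts relative to library size) in S1pr2 shRNA livers, against 4.41, 5.23 and 6.66 CPM in scramble livers (log2 fold change -1.12, SE 0.24; adjusted p = 0.0301 in edgeR's quasi-likelihood test with Benjamini-Hochberg correction). That call was lost on FPKM and without scramble liver 2 or 3 or S1pr2 shRNA liver 2 or 3, with an adjusted p of up to 0.117. Of 12230 tested genes 937, or 7.66%, changed at an adjusted p under 0.05: 369 rose and 568 fell in S1pr2 shRNA livers, so 60.6% of the calls were lower. With upper-quartile scaling 48.5% of 982 calls were lower, and on FPKM (counts scaled by transcript length and depth) 30.6 to 30.8% of 794 to 824 were. Leaving out 1 liver gave 231 calls (without S1pr2 shRNA liver 2) to 643 calls (without S1pr2 shRNA liver 1). Hepatocyte markers summed to 78508, 116974 and 113874 CPM in S1pr2 shRNA livers 1 to 3 and to 121259 to 152976 CPM in scramble livers. Of these 6 markers 0 passed the edgeR test. Most of the sum was Alb, with a mean of 75486 CPM in S1pr2 shRNA livers and 113596 CPM in scramble livers. Apoa1 alone was higher in S1pr2 shRNA livers, with a mean of 10943 CPM against 5170 CPM. Of 8 endothelial markers 4 rose, and the sum of the 8 was 242 to 261 CPM in S1pr2 shRNA livers and 183 to 201 CPM in scramble livers. Lyve1 alone of the 8 was lower in S1pr2 shRNA livers, with a mean of 10.9 CPM against 19.5 CPM (log2 fold change -0.83), and did not pass. Macrophage markers were highest in S1pr2 shRNA liver 1 at 256 CPM, against 131 and 135 CPM in the other S1pr2 shRNA livers and 94.0 to 166 CPM in scramble livers. In whole liver, fewer cells of a type and less RNA per cell cannot be told apart, and the part these differences play in the values below was not tested.

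All 10 genes passed the filter on low counts. Of these, 1 fell, 0 rose and 9 did not pass the test, beside 4.64% of all tested genes that fell and 3.02% that rose. At an unadjusted p under 0.05 there were 3, beside 24.5% of all tested genes. The gene that fell was Dusp1. A log2 fold change below 0 was found for 8 of the 10, beside 48.6% of all tested genes. Their median was -1.11, beside 0.01 over all tested genes. One of the 8, Klf9, stood at -0.0023 and turned above 0 with upper-quartile factors, a filter of 1 CPM or FPKM. The median of the 10 was -0.61 without scramble liver 1 and -1.67 without S1pr2 shRNA liver 1. In 3 genes, Fkbp5, Dusp1 and Errfi1, every S1pr2 shRNA liver lay below every scramble liver, a separation in this direction that 16.8% of all tested genes showed. Counting both directions, the groups also separated in 3 of the 10, or 30%, beside 31.9% of all tested genes.

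**Figure D1:**
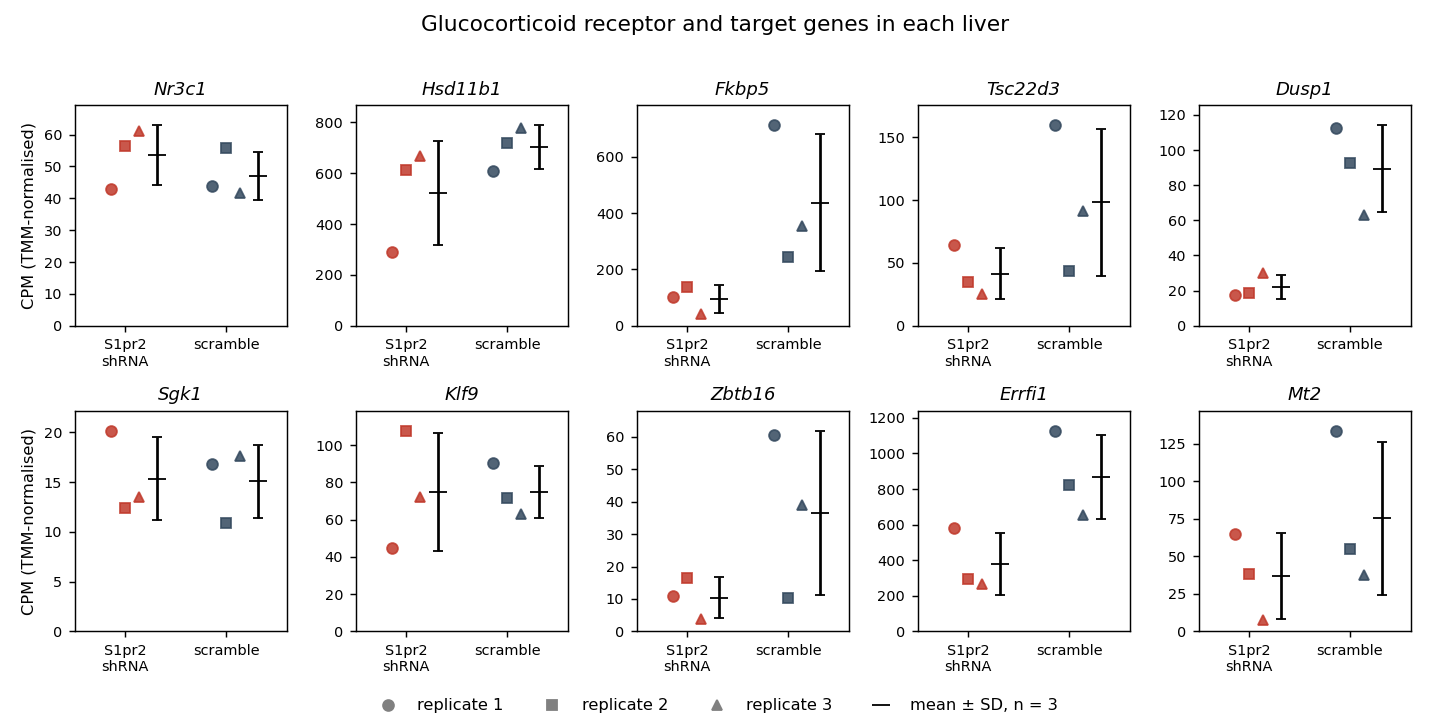
TMM-normalised CPM (linear axes from 0) of the 10 genes in each of 3 S1pr2 shRNA livers (left) and 3 scramble livers (right), with the marker shape giving the replicate number and bars the mean ± SD. The groups do not overlap in Fkbp5, Dusp1 and Errfi1, and scramble liver 1 is the highest of the 6 livers in 6 genes.

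The receptor gene was measured in every liver and did not pass the test. Nr3c1 (Entrez gene 14815) had 43.1, 56.5 and 61.0 CPM in S1pr2 shRNA livers 1 to 3 and 43.7, 55.6 and 41.5 CPM in scramble livers 1 to 3. The groups overlapped, and the highest liver was 1.42 times the lowest among S1pr2 shRNA livers and 1.34 times among scramble livers. Its log2 fold change was 0.19 (SE 0.16; adjusted p = 0.541 by edgeR). Nr3c1 had fractional counts in all 6 libraries, which RSEM gives where reads match more than 1 sequence. In FPKM it averaged 8.68 ± 1.01 in S1pr2 shRNA livers and 6.91 ± 0.943 in scramble livers (SD, n = 3 each).

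Hsd11b1 (15483) encodes the enzyme that regenerates active corticosterone from its inert keto form inside hepatocytes. It had 289, 612 and 666 CPM in S1pr2 shRNA livers 1 to 3 and 609, 718 and 779 CPM in scramble livers 1 to 3. S1pr2 shRNA liver 1 stood apart, while the other S1pr2 shRNA livers lay within the scramble range. On the log2 scale the change was -0.43 (SE 0.30; adjusted p = 0.439 by edgeR), and -0.14 without S1pr2 shRNA liver 1. That liver also had the lowest hepatocyte marker sum, most of which was Alb, and the part of that in the Hsd11b1 value was not tested. H6pd, which supplies the enzyme's NADPH and was picked after its values were seen, stood at 692 to 707 CPM in S1pr2 shRNA livers and 611 to 696 CPM in scramble livers (log2 fold change 0.09, SE 0.13).

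Of 11 genes of the receptor, its ligand and steroid handling, 2 rose, 0 fell and 9 did not pass, with a median of 0.19. Both risers encode steroid-metabolising enzymes. Srd5a1, a steroid reductase that inactivates glucocorticoids, rose to 350 ± 27.7 CPM in S1pr2 shRNA livers, against 99.2 ± 32.7 CPM in scramble livers (mean ± SD of 3 livers), 1.82 higher on the log2 scale (SE 0.25) with an adjusted p of 0.00899 by edgeR. It had 350, 378 and 322 CPM in S1pr2 shRNA livers and 61.6, 120 and 116 CPM in scramble livers, and it passed under all 16 alternatives. Akr1c6, a hydroxysteroid dehydrogenase gene, rose by 0.80 (SE 0.16; adjusted p = 0.0253 by edgeR) and had fractional counts in 6 libraries. Its call was lost without scramble liver 1 or 2 or S1pr2 shRNA liver 2 or 3, with an adjusted p of up to 0.0991. Serpina6, the corticosteroid carrier of plasma, stood at 0.70 (SE 0.21; adjusted p = 0.0937 by edgeR) and Alb, the albumin gene, at -0.59 (SE 0.25; adjusted p = 0.198 by edgeR). With the DESeq2 Wald test 3 of the 11 rose and 1 fell, with Serpina6 and Alb added. That test called 12% of all tested genes.

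Dusp1, Fkbp5 and Errfi1 separated the groups. Dusp1 (19252) had 17.7, 18.8 and 29.9 CPM in S1pr2 shRNA livers 1 to 3 and 112, 92.4 and 63.2 CPM in scramble livers 1 to 3. The highest S1pr2 shRNA liver lay 33.3 CPM below the lowest scramble liver. Dusp1 fell 4.03-fold (log2 fold change -2.01, SE 0.28; adjusted p = 0.0118 by edgeR). Its adjusted p was 0.0158 to 0.0401 with any other liver left out, and 0.0600 without S1pr2 shRNA liver 2. The scramble SD of log2 CPM was 0.42 for Dusp1, beside a median of 0.18 over all tested genes.

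Fkbp5 (14229) had 102, 139 and 40.6 CPM in S1pr2 shRNA livers 1 to 3 and 711, 246 and 353 CPM in scramble livers 1 to 3. Every S1pr2 shRNA liver was lower than every scramble liver, by at least 107 CPM. Scramble liver 1 was 2.38 times the mean of the other scramble livers. The change on the log2 scale was -2.22 (SE 0.58), the largest of the 10 genes in size, yet it did not pass (adjusted p = 0.0800 by edgeR). It was -1.68 without scramble liver 1 (adjusted p = 0.177). Fkbp5 passed with the DESeq2 Wald test (adjusted p = 0.00758), limma-voom (0.0490) and non-robust dispersion (0.0477).

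Errfi1 (74155) had 581, 294 and 267 CPM in S1pr2 shRNA livers 1 to 3 and 1125, 822 and 656 CPM in scramble livers 1 to 3. The groups did not overlap, with S1pr2 shRNA liver 1 closest to the scramble range. As a log2 fold change this was -1.19 (SE 0.34; adjusted p = 0.0844 by edgeR) and did not pass. Without S1pr2 shRNA liver 1 it was -1.63 and passed (adjusted p = 0.0201), and it also passed with the DESeq2 Wald test (adjusted p = 0.00248).

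Tsc22d3, Zbtb16 and Mt2 had lower means in S1pr2 shRNA livers, but their groups overlapped and none passed. Tsc22d3 (14605) had 64.2, 35.0 and 25.5 CPM in S1pr2 shRNA livers 1 to 3 and 160, 43.6 and 91.6 CPM in scramble livers 1 to 3. Scramble liver 2 lay below S1pr2 shRNA liver 1. The log2 fold change was -1.24 (SE 0.57; adjusted p = 0.253 by edgeR), and -0.70 without scramble liver 1. Zbtb16 (235320), a BTB zinc finger gene, had 10.8, 16.5 and 3.81 CPM in S1pr2 shRNA livers 1 to 3 and 60.5, 10.2 and 39.0 CPM in scramble livers 1 to 3. Scramble liver 2 lay among the S1pr2 shRNA livers, and the scramble livers alone spanned 5.93-fold. Its log2 fold change was -1.82 (SE 0.80; adjusted p = 0.245 by edgeR), and fractional counts were present in all 6 libraries.

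Mt2 (17750) had 65.2, 38.5 and 7.49 CPM in S1pr2 shRNA livers 1 to 3 and 134, 54.8 and 37.8 CPM in scramble livers 1 to 3. S1pr2 shRNA liver 3 was the lowest and scramble liver 1 the highest, and the other 4 livers were intermixed. The livers spanned 8.69-fold within the S1pr2 shRNA group and 3.53-fold within the scramble group. The log2 fold change was -1.02 (SE 0.86; adjusted p = 0.540 by edgeR), -0.32 without scramble liver 1 and -0.54 without S1pr2 shRNA liver 3. The paralog Mt1, picked after its values were seen, had 73.2, 33.0 and 14.6 CPM in S1pr2 shRNA livers and 143, 72.9 and 61.7 CPM in scramble livers, with the same livers at the extremes (log2 fold change -1.20, SE 0.65; adjusted p = 0.330 by edgeR). Of 9 zinc and metallothionein genes 3 had an unadjusted p under 0.05 by edgeR, beside 24.5% of all tested genes. Of the 9, 0 passed the edgeR test or limma-voom, and 2 passed the DESeq2 Wald test, which called 12% of all tested genes. Those 2 were Slc39a4, a zinc importer gene, at 0.61 (adjusted p = 0.0514 by edgeR) and Mtf1, which encodes the factor that binds metal response elements, at -0.53 (adjusted p = 0.0592 by edgeR, with fractional counts in 6 libraries). Over the 16 alternatives Slc39a4 passed in 7 and Mtf1 in 2. The transporter genes Slc39a10 and Slc30a10 stood at 1.03 and -0.40 and did not pass (adjusted p = 0.146 and 0.240 by edgeR).

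Sgk1 and Klf9 did not pass the test, and their groups overlapped. Sgk1 (20393) had 20.1, 12.4 and 13.5 CPM in S1pr2 shRNA livers 1 to 3 and 16.8, 10.9 and 17.6 CPM in scramble livers 1 to 3. The groups were interleaved, 4 libraries had fractional counts, and the log2 difference was 0.03 (SE 0.24; adjusted p = 0.959 by edgeR). Klf9 (16601) had 44.8, 108 and 72.4 CPM in S1pr2 shRNA livers 1 to 3 and 90.2, 71.6 and 63.0 CPM in scramble livers 1 to 3. Both extremes of Klf9 were S1pr2 shRNA livers, and the log2 fold change was -0.0023 (SE 0.32; adjusted p = 0.997 by edgeR). Of 13 SGK and KLF relatives, 1 rose, 1 fell and 11 did not pass. Klf10, a TGF-beta-inducible zinc finger gene, fell to 25.9 ± 8.76 CPM in S1pr2 shRNA livers, against 104 ± 35.2 CPM in scramble livers (mean ± SD of 3 livers), 4.01-fold lower with an adjusted p of 0.0280 by edgeR. Its call was lost without scramble liver 2 or 3 or S1pr2 shRNA liver 2 or 3, with an adjusted p of up to 0.0834. Ndrg1, which encodes a substrate of SGK1, rose by 0.97 (SE 0.13; adjusted p = 0.00772 by edgeR) and passed under all 16 alternatives. Sgk2, a kinase relative, stood at 0.69 and Ndrg2 at 0.30, and neither passed (adjusted p = 0.0659 and 0.319 by edgeR). Of 9 TSC22 and BTB zinc finger genes 1 rose: Tsc22d1, by 1.27 (SE 0.21; adjusted p = 0.0147 by edgeR), with the call lost without scramble liver 3 or S1pr2 shRNA liver 2 (adjusted p up to 0.0655). Zbtb7b stood at -0.37 (adjusted p = 0.142 by edgeR).

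**Figure D2:**
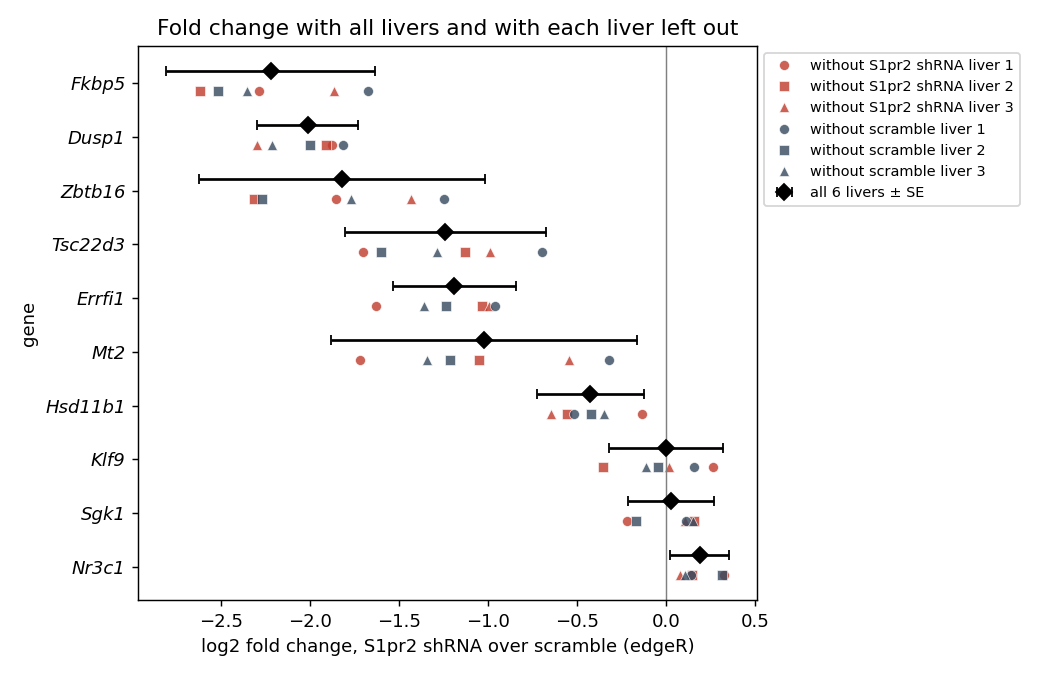
Log2 fold change of S1pr2 shRNA over scramble livers (horizontal axis, edgeR) for the 10 genes, with all 6 livers (black, ± SE) and with each liver left out in turn (coloured markers). The values of Fkbp5, Dusp1, Zbtb16, Tsc22d3, Errfi1, Mt2 and Hsd11b1 stay below 0 whichever liver is left out, while those of Sgk1 and Klf9 fall on both sides.

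The 10 genes differed in how far the scramble livers spread. The scramble SD of log2 CPM was 1.33 for Zbtb16, 0.94 for Tsc22d3, 0.93 for Mt2 and 0.78 for Fkbp5, which placed them at the 98.9th, 96.9th, 96.9th and 95.0th percentiles of all tested genes. It was 0.18 for Hsd11b1, 0.22 for Nr3c1 and 0.26 for Klf9. The median over the 10 genes was 0.41, beside 0.18 over all tested genes. Among S1pr2 shRNA livers the median SD was 0.65, beside 0.18 over all tested genes, with Mt2 the highest at 1.62. Scramble liver 1 was the highest of the 6 livers in 6 of the 10 genes (Fkbp5, Tsc22d3, Dusp1, Zbtb16, Errfi1 and Mt2), beside 24.1% of all tested genes. S1pr2 shRNA liver 3 was the lowest in 5 of the 10, a count for which the share over all tested genes was not computed. Relative to the scramble mean, the median of the 10 genes on the log2 scale was -0.63, -0.78 and -1.60 in S1pr2 shRNA livers 1 to 3 and 0.39, -0.15 and -0.16 in scramble livers 1 to 3.

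**Figure D3:**
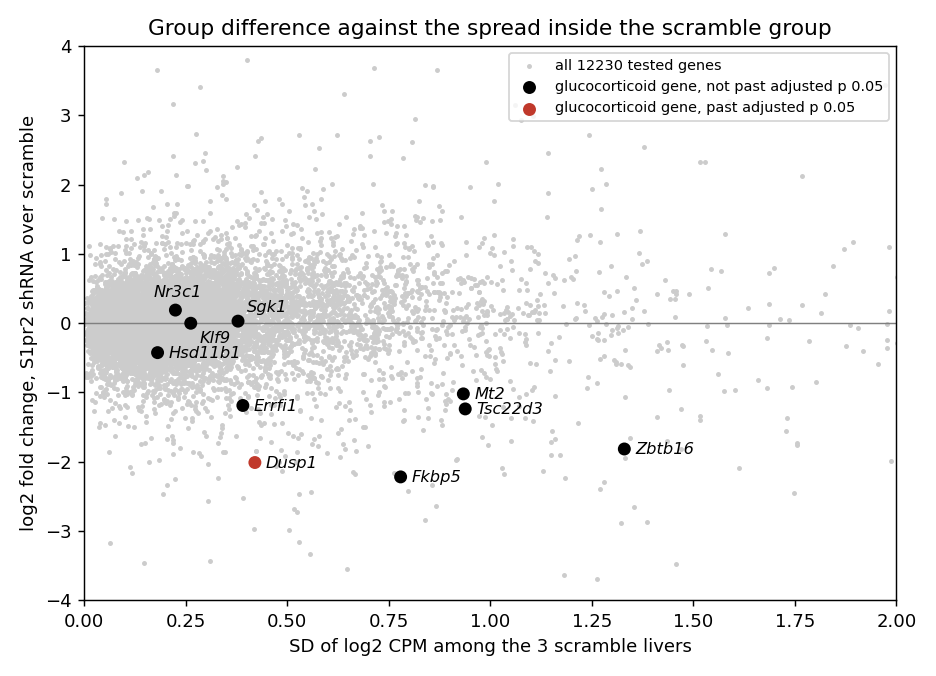
Log2 fold change of S1pr2 shRNA over scramble (vertical axis) against the SD of log2 CPM among the 3 scramble livers (horizontal axis) for all tested genes (grey) and the 10 glucocorticoid genes (black, or red where the adjusted p is under 0.05); 37 genes lie outside the axes. Dusp1 and Fkbp5 have similar changes of -2.01 and -2.22, but scramble SDs of 0.42 and 0.78.

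Per length, in FPKM, Hsd11b1 was the most abundant of the 10, at 401 ± 136 in S1pr2 shRNA livers and 494 ± 57.6 in scramble livers (SD, n = 3 each), and no other member reached its range in either group. Errfi1 followed with 134 ± 73.2 FPKM in S1pr2 shRNA livers and 270 ± 77.8 in scramble livers. Mt2 had 75.8 ± 63.7 FPKM in S1pr2 shRNA livers and 136 ± 94.5 in scramble livers. Fkbp5 had 25.1 ± 12.8 FPKM in S1pr2 shRNA livers and 106 ± 61.4 in scramble livers. Among S1pr2 shRNA livers every neighbouring pair in the order from Errfi1 through Mt2, Fkbp5, Klf9, Tsc22d3, Dusp1 and Nr3c1 to Sgk1 overlapped in range, and Zbtb16 was lowest and separate at 2.10 ± 1.23 FPKM. Among scramble livers Dusp1, at 43.4 ± 12.3 FPKM, stood above Klf9 at 21.6 ± 4.34 FPKM without overlap, while Tsc22d3 at 46.8 ± 28.7 FPKM overlapped both. Nr3c1, Zbtb16 and Sgk1 overlapped at the low end of that group, at 6.91, 6.77 and 5.76 FPKM.

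Other glucocorticoid-induced genes were mostly below 0 as well. Of 33 such genes, all tested, 1 fell, 0 rose and 32 did not pass, beside 4.64% of all tested genes that fell and 3.02% that rose. Their median log2 fold change was -0.54. Values below 0 were found for 29, or 87.9%, beside 48.6% of all tested genes. The lists were chosen with earlier results of these data known, so these shares are a description. The share below 0 was also 82.4% for 17 receptor coregulators and 76.9% for 13 receptor chaperones other than Fkbp5. It was 36.4% for the 11 genes of the receptor, its ligand and steroid handling. Scramble liver 1 was the highest liver in 25 of the 33, 75.8%, beside 24.1% of all tested genes. The median and the share below 0 of the 33 were not computed without that liver. The same liver was highest in 69.2% of the 13 other receptor chaperones and 52.9% of the 17 coregulators. For the 11 receptor, ligand and steroid genes the share was 9.09%. With the DESeq2 Wald test 4 fell (Gpt2, Lpin1, Sult1e1 and Tat) and Fam107a rose, beside 12% of all tested genes called by that test. With limma-voom, which called 6.98% of all tested genes, Lpin1 and Sult1e1 fell. Sult1e1, the estrogen sulfotransferase, fell (log2 fold change -1.84, SE 0.30; adjusted p = 0.0155 by edgeR), and its call was lost without S1pr2 shRNA liver 2 (adjusted p = 0.0694). Lpin1, a phosphatidate phosphatase that coactivates fasting genes, had 75.9, 155 and 51.0 CPM in S1pr2 shRNA livers and 715, 223 and 480 CPM in scramble livers. The groups did not overlap, but the log2 fold change of -2.33 (SE 0.58) did not pass (adjusted p = 0.0676 by edgeR). Fam107a, with fractional counts in 6 libraries, was at 1.21 to 2.82 CPM in S1pr2 shRNA livers and 0.187 to 0.735 CPM in scramble livers (adjusted p = 0.0900). Gpt2, an alanine transaminase, stood at -0.50 (SE 0.15, adjusted p = 0.0902). The classical targets Tat, Pck1 and Per1 were picked after their values were seen. Tat, the tyrosine transaminase, had 487, 577 and 632 CPM in S1pr2 shRNA livers and 1898, 672 and 838 CPM in scramble livers (adjusted p = 0.164 by edgeR). Pck1, the gluconeogenic carboxykinase, had 460, 489 and 256 CPM in S1pr2 shRNA livers and 2233, 274 and 680 CPM in scramble livers (adjusted p = 0.338 by edgeR; fractional counts in 6 libraries). Per1, a clock gene, had 22.4, 7.96 and 3.34 CPM in S1pr2 shRNA livers and 37.7, 10.95 and 23.7 CPM in scramble livers (adjusted p = 0.467 by edgeR). In all 3, scramble liver 1 was the highest.

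**Figure D4:**
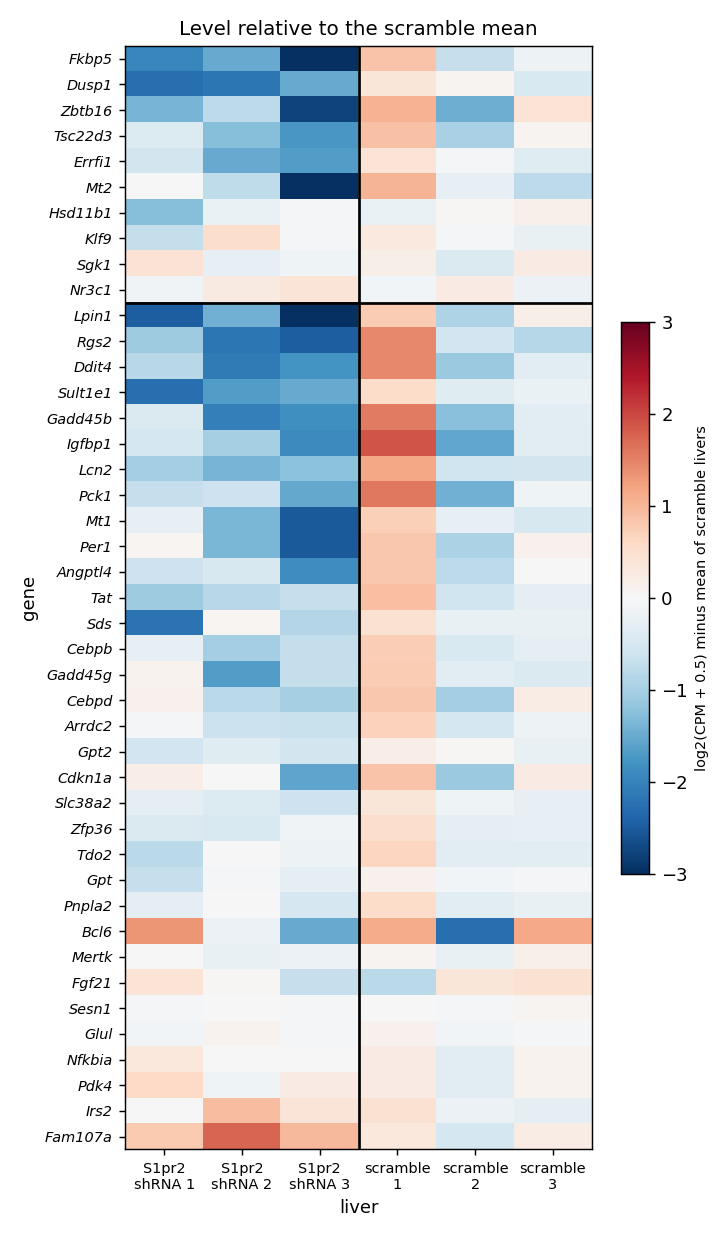
Log2(CPM + 0.5) minus the mean of the scramble livers, by colour (blue lower, red higher, saturating at 3 units), for the 10 genes (above the line) and 33 other glucocorticoid-induced genes (below it) in 3 S1pr2 shRNA livers (left) and 3 scramble livers (right), each block sorted by fold change. Scramble liver 1 is red in most rows, and scramble liver 2 is blue in Zbtb16, Tsc22d3 and Pck1.

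Dusp1 and Errfi1 belong to a wider set of kinase brakes, listed here together with the receptor genes Egfr, Erbb2 and Erbb3. Of 17 tested MAP kinase phosphatases, EGF receptor feedback genes and these receptors, 1 rose and 1 fell (Dusp1), with a median of 0.0025. Erbb3, a receptor tyrosine kinase of the EGF receptor family, rose by 0.58 (SE 0.12; adjusted p = 0.0294 by edgeR), and its call was lost without any of 5 livers, namely scramble livers 2 and 3 and the 3 S1pr2 shRNA livers (adjusted p up to 0.117). Dusp10 stood at 0.47 (adjusted p = 0.184). Of 16 tested immediate early genes, which growth factor and stress signals induce, 0 passed the edgeR test or limma-voom, with a median of -0.07. An unadjusted p under 0.05 by edgeR was found for 3, beside 24.5% of all tested genes. The DESeq2 Wald test called 2 (Btg1 and Myc), beside 12% of all tested genes. Btg1 stood at -0.57 (adjusted p = 0.0653), Klf2 at 0.49 (0.124) and Myc at 1.72 (0.190), where S1pr2 shRNA liver 1 alone reached 24.5 CPM, against 5.33 and 5.57 CPM in the other S1pr2 shRNA livers and 3.03 to 3.98 CPM in scramble livers. Zfp36 was at -0.38 (0.377).

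Among 14 receptor chaperones, which include Fkbp5, 0 passed the edgeR test, and Fkbp5 alone passed limma-voom and the DESeq2 Wald test. An unadjusted p under 0.05 by edgeR was found for 2, beside 24.5% of all tested genes. The median of the 14 was -0.07. Ppp5c, a phosphatase of the receptor complex, stood at -0.45 (adjusted p = 0.105) and Fkbp4, the co-chaperone that favours nuclear transfer, at -0.24 (adjusted p = 0.209), against -2.22 for Fkbp5. Dnaja1 was at -0.20 (adjusted p = 0.547). Of 17 coregulators 1 fell, 0 rose and 16 did not pass, with a median of -0.09. Smarca4, the chromatin remodelling ATPase, fell by 0.93 (SE 0.18; adjusted p = 0.0220 by edgeR; fractional counts in 6 libraries). Its call was lost on FPKM and without S1pr2 shRNA liver 2 or 3 (adjusted p up to 0.0974). Trim28 stood at 0.28 (0.101), Nrip1 at -0.50 (0.205) and Med1 at -0.26 (0.217). Of 13 genes of the inflammation that glucocorticoids damp, which include Rela and Nfkb1, 7 passed the count filter and 0 passed the edgeR test or limma-voom. By edgeR 3 of the 7 had an unadjusted p under 0.05, beside 24.5% of all tested genes. The DESeq2 Wald test called the same 3, beside 12% of all tested genes. They were Rela at 0.42 (adjusted p = 0.0653), Cxcl1 at 1.45 (0.0717) and Cxcl10 (0.120), which had 7.49, 1.04 and 0.703 CPM in S1pr2 shRNA livers and 0.123, 0.373 and 0 CPM in scramble livers. Il1r1 was at -0.51 (0.390).

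The closest patterns were sought among 8791 genes averaging 5 CPM or more, by the root mean square difference over the 6 livers of log2 CPM centred on each gene's own mean. Genes chosen this way share the direction of the gene they were matched to, so their calls are a description. For Fkbp5 they were Lpin1 (0.29 log2 units), St3gal5 (0.35), Styk1 (0.37), Cyp2b19 (0.42) and Cyp2b13 (0.48). Of these, Styk1, Cyp2b19 and Cyp2b13 fell, with Cyp2b13 losing its call without S1pr2 shRNA liver 2 (adjusted p = 0.0784). St3gal5 and Cyp2b13 had fractional counts in 6 libraries and Cyp2b19 in 5. For Dusp1 they included Zfp982 (0.21), Dynlt3 (0.28), Sult1e1 (0.30) and Morc4 (0.32), and these 4 fell, with fractional counts of Zfp982 in 6 libraries. For Zbtb16 they were Usp2 (0.37), Lpin1 (0.50), Fkbp5 (0.51), Scara5 (0.53) and Angptl4 (0.54), and 0 of these 5 passed the edgeR test. Lpin1 and Fkbp5, 2 of the 5, had an unadjusted p under 0.05 and passed limma-voom and the DESeq2 Wald test.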

How the data were processed

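Total RNA from 6 livers was sequenced on a DNB platform. The submitters' processing notes name RSEM 1.2.12, DESeq2, Bowtie2, HISAT2 and the build mm9. No role, read filter or strand setting is given in the sources used here, so overlapping transcripts on opposite strands cannot be separated. The deposited tables give the authors' expected count per gene, unscaled, and the authors' FPKM, scaled by transcript length and depth.

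Unlisted genes were set to 0. Expected counts were rounded, filtered with filterByExpr of edgeR 4.0.16 (minimum count 10) and TMM-normalised, leaving 12230 genes. The shRNA groups were then tested by edgeR's quasi-likelihood F test (robust, two-sided, no covariates; R 4.3.3), adjusted by Benjamini-Hochberg over all tested genes. SEs belong to that fit; log2 CPM used a prior count of 2. The steps were tested on simulated counts with planted changes. Those counts were drawn independently for each gene and liver, so shifts shared by many genes of a liver were not covered. Counts are fractional where a library's value is not whole within 1e-09. All 15 pairs of libraries differed (chi-square per degree of freedom 20.1 to 193.5).

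Alternatives were other scalings, filters and tests (DESeq2 1.42.0 Wald, limma 3.58.1 voom, limma with an intensity trend on log2 FPKM plus 0.1 or 1 keeping mean FPKM values from 0.1 up), non-robust dispersion, a replicate block and each liver left out. The members and lists were chosen with earlier results of these data known. Named genes were the members, S1pr2, list genes that passed, up to 4 of smallest p per list, and the 5 nearest patterns of Fkbp5, Dusp1 and Zbtb16, without predicted or clone names; 1 gene that this rule names is not reported here. T cell, B cell, neutrophil and adipocyte markers summed to at most 2.34 CPM in any liver, cholangiocyte markers to 105, stellate markers to 475 and erythroid markers to 930.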

Additional observations from a re-analysis of the deposited data

How the results depend on the processing

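Across 16 alternatives, 143 of 160 values of the 10 genes kept their direction and side of the threshold, 2 lost their call, 6 gained one and 9 changed sign. The sign changes were in genes near 0. Klf9 stood at 0.067 with upper-quartile factors, 0.0014 with a filter of 1 CPM, 0.073 and 0.072 on log2 FPKM plus 0.1 and 1, and from -0.36 to 0.26 with 1 liver left out. Sgk1 ranged from -0.22 to 0.16 with 1 liver left out. Of 752 values of the related genes 686 kept direction and side, and the 1 sign change was Dnaja1, which ranged from -0.33 to 0.028 with 1 liver left out. The number of changed genes was 1466, or 12% of those tested, with the DESeq2 Wald test and 231 to 643 with 1 liver left out. Of the 10 genes 3 passed with the DESeq2 Wald test (Dusp1, Fkbp5 and Errfi1), 2 with limma-voom or non-robust dispersion, and 0 to 2 with 1 liver left out. Their median ranged from -1.67 to -0.61 with 1 liver left out. The median of all tested genes was 0.16 and 0.10 for log2 FPKM plus 0.1 and 1, against 0.01. For these changes the cause was not tested.

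Same-numbered livers deviated together with correlations of -0.06, 0.22 and -0.12, so the numbers were not taken as pairs. With the replicate block 808 genes changed. S1pr2 (edgeR adjusted p = 0.0684) and Sult1e1 (edgeR adjusted p = 0.0537) did not pass in that fit, while Slc39a4 (edgeR adjusted p = 0.0231) and Mtf1 (edgeR adjusted p = 0.0483) did. Under the block Dusp1 stood at -2.02 (edgeR adjusted p = 0.0602) and Errfi1 at -1.24 and past the threshold (edgeR adjusted p = 0.0188), so that 1 of the 10 genes passed, 8 lay below 0 and their median was -1.20. With 3 livers a group and scramble SDs of 0.78 to 1.33 in Fkbp5, Mt2, Tsc22d3 and Zbtb16, smaller differences lie within the spread between replicates.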
